A study of Mus musculus with 12 samples.

Results

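A set of 28 genes was selected in mast cells by their signals alone, as genes that were dim in interleukin 3 (IL3) and clearly read when stem cell factor (SCF) was present as well. A gene entered when at least 1 of its probe sets, the groups of short probes that read a transcript on the array, lay below 150 on all 6 IL3 arrays and at 200 or above on all 6 IL3+SCF arrays. Of 18194 genes with a probe set that carries a single gene symbol, 31 met these limits, or 0.17%. Tpsab1, Mrgprb1 and Gnai1 were left out of them beforehand, and Csf2, also on that list, did not meet the limits because 5 of its 6 IL3+SCF signals were below 200. The 28 genes had 31 such probe sets, and the 1 with the highest mean IL3+SCF signal stood for each gene. Both groups and both limits were used to choose the genes, so their difference between the groups is a description here and carries no test.

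Gene expression was measured with Affymetrix arrays on mast cells grown from the femoral marrow of C57BL/6 mice. The 6 IL3 samples were cultured for 4 to 6 weeks with 30 ng/ml IL3. The 6 IL3+SCF samples received the same cytokine and SCF, at 100 ng/ml unless indicated otherwise, so IL3 was common to both groups. The labels put the purity above 99%, by toluidine blue and by the receptors FceRIa and KIT, and do not say whether replicates came from separate cultures or animals. Any p-value below therefore reflects how far these particular samples vary among themselves, and that variation may be technical. No age or sex of the animals was used here. All 9 defining mast cell genes looked up, among them Kit and Fcer1a, were above the 40th percentile of every array, the lowest signal being 3071. In bulk RNA, a change in the number of cells that carry a transcript and a change in the RNA per cell cannot be told apart.

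Mast cells are long-lived tissue cells that carry the receptor tyrosine kinase KIT and release granules when IgE receptors on their surface are crosslinked. SCF is the ligand of KIT, and its signal runs through phosphoinositide 3-kinase, Src family kinases and the MAP kinases. Marrow cultures in IL3 alone give immature mast cells, and SCF is known to move them towards the mature cells of connective tissue. The transcription factors GATA2 and MITF are central to the mast cell programme and bind the GATA motif and an E-box.

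Start regions are printed for 4 of the genes as examples in which motifs bound by mast cell or TEAD factors occur. Such motifs also occur in other genes of the set and in many genes on the array, at the shares given below. Sema3e and Wwtr1 had the widest gaps between the groups, Epha3 is a receptor of the same surface group as Sema3e, and Brdt is a gene normally read in the testis. Each is the RefSeq GRCm38.p6 sequence from 250 bases before to 50 after the annotated start of transcription, 5′ to 3′ along the gene's own strand. Capitals mark GATA motifs (the core GATA after A or T and before A or G), MITF E-boxes (CACGTG, or the same with T as the third base) and the TEAD motif (GGAATG), on either strand. The windows are chr5:14025026-14025325 on the plus strand for Sema3e, chr3:57575861-57576160 on the minus strand for Wwtr1, chr16:63864126-63864425 on the minus strand for Epha3 and chr5:107330944-107331243 on the plus strand for Brdt.
Sema3e: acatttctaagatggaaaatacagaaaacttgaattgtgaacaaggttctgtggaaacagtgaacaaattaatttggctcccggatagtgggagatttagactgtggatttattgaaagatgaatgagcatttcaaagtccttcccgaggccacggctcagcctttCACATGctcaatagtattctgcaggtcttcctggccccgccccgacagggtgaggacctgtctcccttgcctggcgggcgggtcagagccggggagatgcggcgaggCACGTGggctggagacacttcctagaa
Wwtr1: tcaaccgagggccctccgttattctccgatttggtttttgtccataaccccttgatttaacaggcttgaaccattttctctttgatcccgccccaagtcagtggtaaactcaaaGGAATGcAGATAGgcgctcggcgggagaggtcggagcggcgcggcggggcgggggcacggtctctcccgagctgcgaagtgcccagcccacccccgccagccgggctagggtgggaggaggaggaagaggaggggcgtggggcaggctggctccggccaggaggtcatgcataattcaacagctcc
Epha3: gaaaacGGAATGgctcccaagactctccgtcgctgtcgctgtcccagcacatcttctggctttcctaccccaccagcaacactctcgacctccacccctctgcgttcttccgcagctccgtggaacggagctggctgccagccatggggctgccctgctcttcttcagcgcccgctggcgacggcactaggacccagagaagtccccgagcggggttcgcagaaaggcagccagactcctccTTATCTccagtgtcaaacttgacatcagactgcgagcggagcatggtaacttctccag
Brdt: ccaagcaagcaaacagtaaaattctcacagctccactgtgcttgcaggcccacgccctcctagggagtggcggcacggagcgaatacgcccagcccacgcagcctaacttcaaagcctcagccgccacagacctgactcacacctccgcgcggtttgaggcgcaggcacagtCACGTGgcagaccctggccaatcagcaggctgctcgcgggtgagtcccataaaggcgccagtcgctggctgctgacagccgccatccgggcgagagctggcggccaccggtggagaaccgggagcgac
In the Sema3e window 2 E-boxes were found, 1 of them a CACGTG in the stretch after the start. The Wwtr1 window holds a TEAD motif and, 1 base further, a GATA motif, and the Epha3 window holds both motifs far apart. The Brdt window holds a single E-box. A letter match describes the window and does not show that a factor binds there.

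The word background applied to a portion of the set. The limit of 150 lies near the median signal of an array, which ran from 151 to 203, and between 46.6% and 49.9% of all probe sets were below 150 on an IL3 array. A stricter description of dim is a signal at or below the array's own 40th percentile, which was 61.1 to 94.3 on the IL3 arrays and 69.3 to 102 on the IL3+SCF arrays. By that measure 6 genes, Sema3e, Wwtr1, Ephx4, Cavin2, Jup and Tgfa, were dim on all 6 IL3 arrays through the probe set that stands for them. A second Gnaq probe set was dim on all 6 too. Hopx, Plekha1 and Galnt6 were dim on 0 IL3 arrays, and the other 19 on 1 to 5. On the IL3+SCF arrays 0 of the 28 genes were dim on any array.

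With SCF the genes were read at a modest level on the probe sets that stand for them. Median IL3+SCF signals there ran from 211 to 631, with 5 genes at 500 or above, 13 between 300 and 500, and 10 under 300. Other probe sets of some of these genes were brighter, up to a median of 3226 for Plekha1, as given below. The median over the 28 genes was 80.9 ± 18.3 on the IL3 arrays and 323 ± 7.59 on the IL3+SCF arrays (mean and SD of the array medians, n = 6 each). The gap, the lowest IL3+SCF signal divided by the highest IL3 signal, had a median of 2.18, was at least 3 in 8 genes and under 2 in 13. The coefficient of variation among arrays, the SD divided by the mean, was larger in IL3 than in IL3+SCF for all 28 genes, with medians of 37.6% and 15.6%. The limits held the IL3 means low and the IL3+SCF means high, which by itself raises this ratio in IL3. Nothing is read from it about how much the genes vary without SCF.

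**Figure D1:**
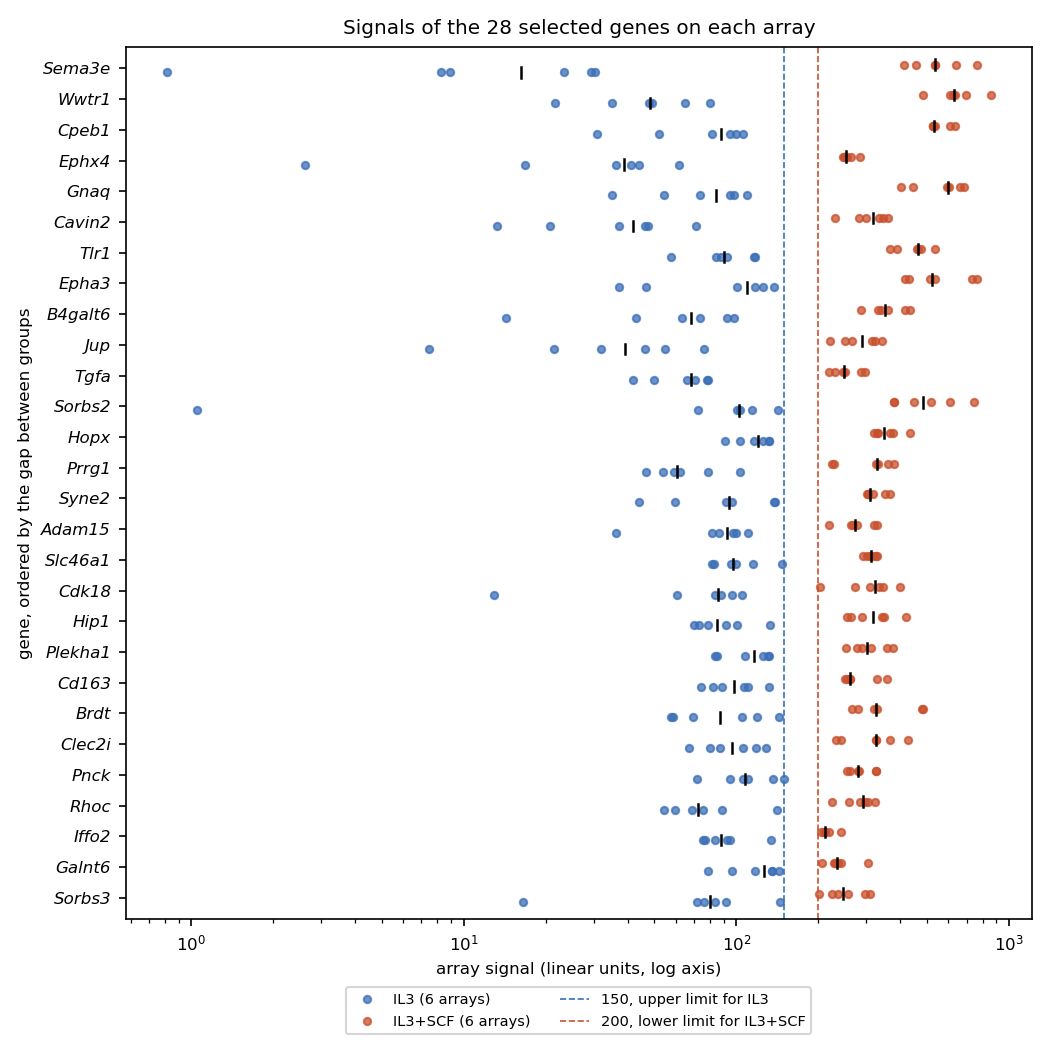
Each point is 1 array's signal for the probe set that stands for a gene, on a log axis, with IL3 in blue and IL3+SCF in red, 6 arrays each, black ticks at the medians and dashed lines at the limits of 150 and 200 that chose the genes. Sema3e at the top has the widest gap (13.7) and Sorbs3 at the bottom the narrowest (1.38); the empty band between the lines was set by the choice of genes.

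Among 8 genes for surface and secreted signals, Sema3e stood furthest from its IL3 level. It encodes semaphorin 3E, a secreted guidance protein that signals through plexin D1. The signals were 0.815, 16.1 and 30.2 in IL3 and 413, 535 and 765 in IL3+SCF (lowest, median and highest of 6 arrays, the order used below). The IL3 signals are at the bottom of the arrays, so the ratio of 33.2 between the medians is not a reliable fold. A second probe set met the limits as well, with 13.3, 49.9 and 73.0 in IL3 and 338, 521 and 754 in IL3+SCF. The remaining 2 probe sets of the gene also had every IL3+SCF array above every IL3 array.

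Epha3, a receptor tyrosine kinase for ephrin-A ligands, read 37.0, 109 and 138 in IL3 and 417, 524 and 763 in IL3+SCF. A second probe set gave 38.6, 83.4 and 122 against 487, 492 and 591. The other 2 probe sets of Epha3 stayed below 150 on all 12 arrays, and their groups overlapped. Tlr1, the partner of TLR2 in sensing bacterial lipopeptides, read 57.4, 90.1 and 117 against 367, 462 and 537. For both genes the lowest IL3+SCF array was replicate 4, yet it lay 3.03 and 3.13 times above the highest IL3 array. Tgfa, transforming growth factor alpha, a ligand of the EGF receptor, was dim on every IL3 array, with 41.8, 68.5 and 78.4, and read 219, 249 and 296 with SCF. Its 2 other probe sets were dim on all 12 arrays, so the Tgfa result rests on 1 probe set.

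Prrg1, a small membrane protein with a vitamin K-dependent Gla domain, read 46.8, 60.5 and 103 in IL3 and 225, 328 and 380 in IL3+SCF. Clec2i, a C-type lectin-like protein of the family recognised by NK cell receptors, read 67.1, 96.4 and 128 against 232, 325 and 427. Its other probe set gave the same picture at 280 to 411 with SCF, and missed the IL3 limit through a single array at 182. Cd163, the haemoglobin scavenger receptor best known from macrophages, read 74.2, 98.1 and 132 against 250, 262 and 356. Adam15, a membrane metalloprotease, read 36.3, 92.1 and 110 against 218, 273 and 328 on the chosen probe set.

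The macrophage setting of Cd163 was looked at through 13 of 15 listed monocyte and macrophage markers found on the array. Their summed signal was lower with SCF, at 4244 to 5262 against 12974 to 17619 in IL3. Of 6 markers tested, Cd68 rose and 3 fell, among them Cx3cr1 and Lyz1 with log2 differences of -3.90 and -1.96, and the other 2 did not pass. On the IL3 arrays 5 markers were dim throughout, and 6 on the IL3+SCF arrays. The part of such cells in the Cd163 signal was not tested. Neutrophil markers summed to 330 to 7164 on the IL3 arrays and 247 to 418 on the IL3+SCF arrays. The highest sums were those of IL3 replicates 3 and 6. Their part in the signals of the 28 genes was not tested.

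Of 5 genes that relay signals inside the cell, Gnaq was the brightest on the chosen probe sets. Plekha1 and Rhoc were brighter on other probe sets. Gnaq encodes the G protein alpha q subunit, which couples receptors to phospholipase C beta. The chosen probe set read 34.9, 84.0 and 109 in IL3 and 402, 599 and 687 in IL3+SCF. Another probe set within the limits read 36.7, 51.7 and 87.4 against 374, 466 and 562. Gnaq had 7 probe sets in all, 6 of them with every IL3+SCF array above every IL3 array, and the brightest went from a median of 184 to 1017. That probe set was at 150 or above on 4 IL3 arrays.

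Cdk18, a PCTAIRE-family cyclin-dependent kinase, read 12.9, 85.7 and 105 in IL3 and 203, 322 and 399 in IL3+SCF. Pnck, a kinase related to calcium/calmodulin-dependent kinase I, read 71.9, 108 and 149.6 against 254, 281 and 326. Both have a single probe set, and Pnck lay nearest the IL3 limit of all 28 genes. Plekha1 encodes a pleckstrin homology protein (TAPP1) that binds the lipid PI(3,4)P2, a product of the phosphoinositide 3-kinase pathway. Its chosen probe set read 83.5, 116 and 132 against 253, 300 and 377. Rhoc, a small GTPase that acts on the actin cytoskeleton, read 54.1, 72.1 and 141 against 224, 291 and 322.

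Genes for membrane shape, junctions and the cytoskeleton formed a group of 7. Cavin2, which helps to shape the membrane pits called caveolae, was dim on all IL3 arrays at 13.2, 41.7 and 71.4 and read 230, 316 and 361 with SCF. Another Cavin2 probe set overlapped between the groups, at up to 76.0 in IL3 and from 61.5 with SCF, while the remaining probe set did not overlap. Jup, plakoglobin, a catenin of desmosomes and adherens junctions, was dim on all IL3 arrays at 7.49, 39.1 and 76.2 and read 220, 290 and 341. Sorbs2, an adaptor of the actin cytoskeleton with SH3 domains, read 1.05, 102 and 142 in IL3 and 378, 484 and 745 in IL3+SCF. The lowest of these, IL3 replicate 4, stood far below the other 5 IL3 arrays, and the 3 other Sorbs2 probe sets stayed below 150 on all 12 arrays.

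Syne2, nesprin-2, which links the nucleus to the cytoskeleton, read 43.9, 94.1 and 139 in IL3 and 302, 311 and 365 in IL3+SCF. Its 3 other probe sets were dim on all 6 IL3 arrays, with IL3+SCF medians of 117, 126 and 133. Hip1, an adaptor of clathrin and actin in endocytosis, read 69.8, 85.2 and 133 against 255, 316 and 418. Iffo2, an intermediate filament family protein, and Sorbs3, vinexin, an adaptor that binds vinculin, lay close to the limits, with lowest IL3+SCF signals of 204.7 and 200.5. Both of these lowest signals came from IL3+SCF replicate 5.

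Wwtr1 was the brightest of 4 genes for transcription and RNA control and, on the chosen probe sets only, of the whole set. It encodes TAZ, the partner of YAP as an effector of the Hippo pathway and a coactivator of TEAD factors. The signals were 21.7, 48.3 and 80.4 in IL3 and 485, 631 and 858 in IL3+SCF, a gap of 6.04. Its 2 other probe sets were dim on all 12 arrays but had the same order, with medians of 7.84 and 3.77 in IL3 and 49.7 and 44.4 with SCF and no overlap between the groups. Cpeb1, a protein that binds the polyadenylation element of mRNAs and controls their translation, read 30.8, 88.1 and 106 against 525, 531 and 632. That lowest signal of 525 was the highest minimum among the chosen probe sets.

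Hopx, a small homeodomain protein that does not bind DNA itself, read 90.7, 121 and 132 in IL3 and 321, 349 and 432 in IL3+SCF. Brdt, a bromodomain protein of male germ cells that reads acetylated histones, read 57.7, 87.1 and 143 against 266, 324 and 482. A second Brdt probe set had the same order (58.7, 131 and 167 against 187, 311 and 387), while the remaining probe set was dim on all 12 arrays.

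The last 4 genes belong to lipid, sugar and folate metabolism. Ephx4, an enzyme of the epoxide hydrolase family, was dim on all IL3 arrays at 2.62, 38.6 and 61.6 and read 247, 252 and 285 with SCF. B4galt6, a galactosyltransferase that makes lactosylceramide, read 14.3, 68.5 and 98.1 against 287, 350 and 432. Slc46a1, the proton-coupled folate transporter, read 81.5, 97.5 and 147 against 291, 313 and 328. Among the chosen probe sets it had the smallest coefficient of variation in IL3+SCF, 4.43%. The other Slc46a1 probe set overlapped between the groups, at up to 148 in IL3 and from 140 in IL3+SCF. Galnt6, which starts mucin-type O-glycans, read 78.6, 126 and 144 against 207, 234 and 305 on the chosen probe set.

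Whether a gene was dim in IL3 depended on which of its probe sets was read. The 28 genes have 47 further single-symbol probe sets in 20 genes, and 8 genes have none. Of these 47, 3 met both limits, 14 were below 150 on all IL3 arrays without reaching 200 on every IL3+SCF array, 19 were below 150 on all 12 arrays, and 11 were at 150 or above on at least 1 IL3 array. In 27 of the 47 every IL3+SCF array lay above every IL3 array, and in 0 the reverse held. Over all 34958 single-symbol probe sets these shares were 5.94% and 5.37%. The same arrays chose the genes, so nothing is read from that count.

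A group of 5 genes was well above background in IL3 through another probe set. Galnt6 read 675, 1073 and 1714 in IL3 and 2335, 2968 and 3130 in IL3+SCF on its brightest probe set. Plekha1 read 1294, 1655 and 1890 against 2832, 3226 and 3333. Rhoc read 428, 546 and 837 against 1756, 1915 and 2209. These groups do not overlap, but the genes were plainly read without SCF. The same held for Adam15, at 387 to 580 in IL3 and 1042 to 1340 with SCF, and for Hip1, at 291 to 444 and 803 to 1123. For these 5 genes the brightest probe sets show a higher signal with SCF and no start from background. Some other probe sets of Galnt6, Adam15 and Hip1 overlapped between the groups, in Galnt6 at 188 to 311 in IL3 and 210 to 426 in IL3+SCF.

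**Figure D2:**
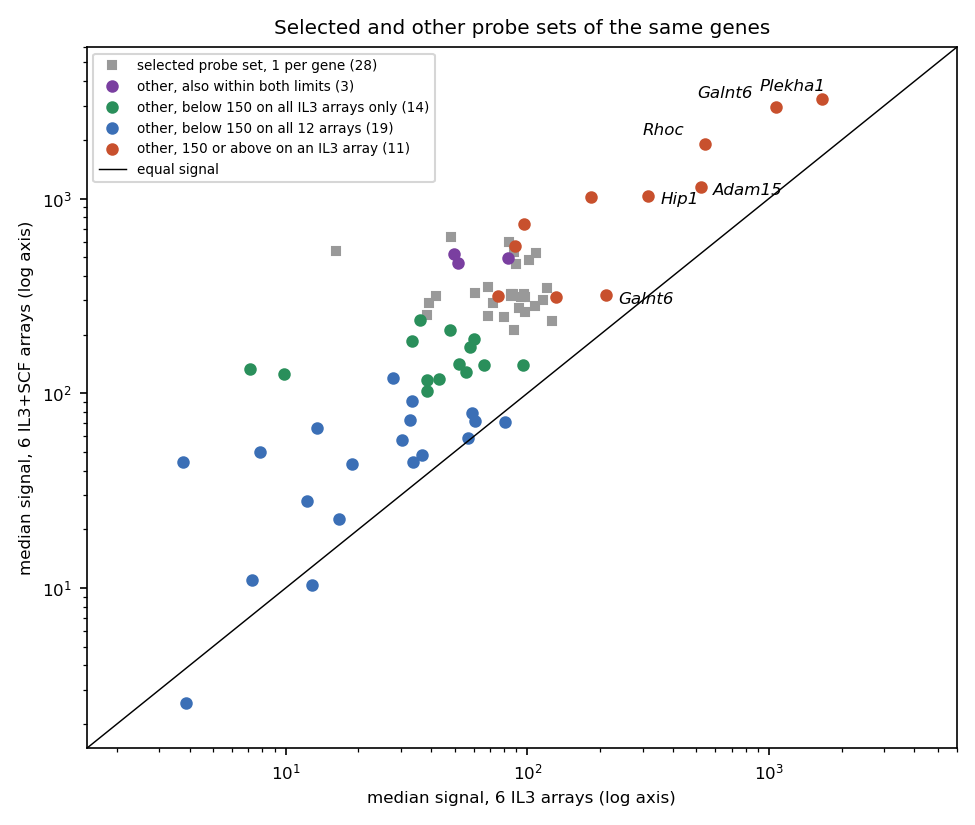
Each point is 1 probe set, with the median of 6 IL3 arrays across and of 6 IL3+SCF arrays up, both on log axes; grey squares are the 28 chosen probe sets and coloured circles the 47 others of the same genes. Named circles were at 150 or above on all 6 IL3 arrays (Galnt6 at 2 points, at IL3 medians of 1073 and 212), and points above the line have a higher IL3+SCF median.

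Single arrays set many of the extremes. IL3 replicate 4 gave the lowest IL3 signal for 13 of the 28 genes and IL3 replicate 1 the highest for 13. These arrays also had the lowest and the highest 40th percentile among the IL3 arrays, 61.1 and 94.3. IL3+SCF replicate 4 was the lowest of its group for 11 genes and replicate 6 the highest for 9, the latter with the highest 40th percentile of all, 102. The part of these array-wide levels in the order of the arrays was not tested. When IL3 replicate 1 was left out the limits gave 35 genes, and without IL3+SCF replicate 1 they gave 36. Fewer arrays can only loosen limits that every array must meet, so the 28 genes stay in by construction.

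**Figure D3:**
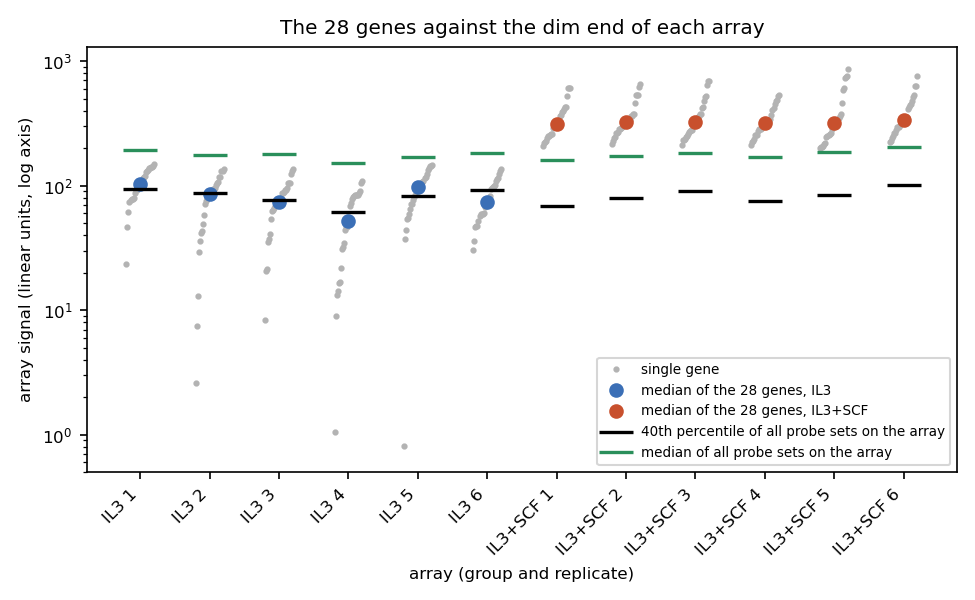
Grey points are the signals of the 28 genes on each array, sorted within an array, on a log axis; large points are their median, black bars the 40th percentile and green bars the median of all probe sets on that array. The median of the 28 genes lies between 51.9 and 103 on the IL3 arrays, around the black bars, and between 313 and 336 on the IL3+SCF arrays, above the green bars.

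Several genes lay just inside or just outside the limits. On the IL3 side the highest signals inside were 149.6 for Pnck, 146.6 for Slc46a1, 145.2 for Sorbs3, 144.2 for Galnt6 and 142.6 for Brdt. On the IL3+SCF side the lowest were 200.5 for Sorbs3, 203.0 for Cdk18, 204.7 for Iffo2, 207.3 for Galnt6 and 218.1 for Adam15. In addition, 25 probe sets, of 21 genes outside the set and of Gnaq and Clec2i, missed a limit on a single array. The nearest were Pcbd1 at 150.9 on IL3 replicate 1, Plxna2 at 194.7, Cnpy2 at 193.1 and Sgpl1 at 189.9 on IL3+SCF replicate 1, and Samd4 at 155.3 on IL3 replicate 1. The edge of the set is therefore a matter of a few signal units on single arrays.

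The known partners and close relatives of the genes did not enter the choice and were tested across all genes (limma on log2 of signal + 16, 2-sided, Benjamini-Hochberg adjusted p below 0.05). Over all 11430 genes in that fit, 18.9% rose and 16.6% fell. Of 126 partners listed for 27 of the genes, 88 were bright enough to test, and 23 of them rose, 14 fell and 51 did not pass. The falls include Cdh1 and Ephx2, which passed the brightness filter through the IL3 arrays alone. These are 26.1% and 15.9%, with a median log2 difference of 0.10 against 0.02 over all genes. The list was drawn up after the 28 genes and earlier results of these same arrays were known. The partners named below were chosen after their values were seen. Nothing about the 28 genes is read from these shares.

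**Figure D4:**
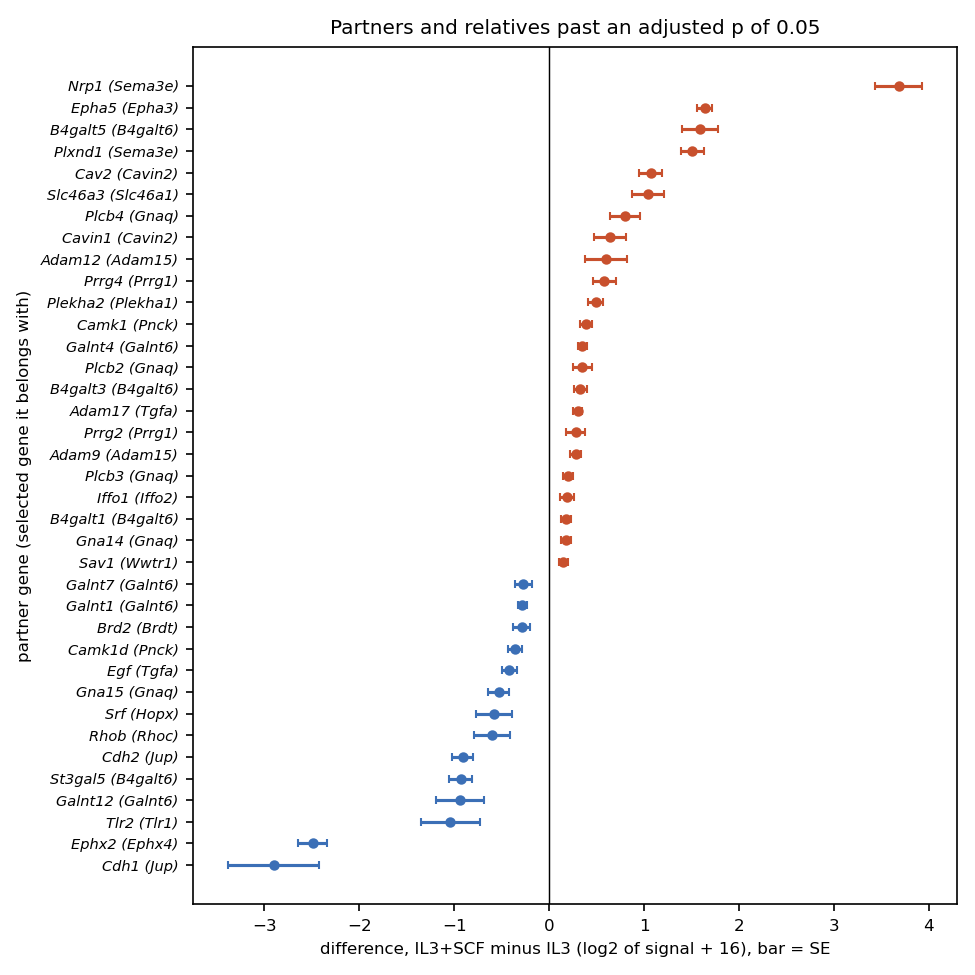
Points are log2 differences (IL3+SCF minus IL3, of signal + 16) with their SE for the 37 of 88 tested partner genes past an adjusted p of 0.05, risen in red and fallen in blue, each with the selected gene it belongs with in brackets. Nrp1 and Epha5 lie at the top; Cdh1 and Ephx2 at the bottom were dim on all 6 IL3+SCF arrays, so their size is not reliable. In all 21 other fits tried, 14 of the 23 rises and 10 of the 14 falls passed.

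Receptor genes for semaphorin 3E rose. Plxnd1, plexin D1, read 292, 333 and 474 in IL3 and 914, 1025 and 1218 in IL3+SCF. The log2 difference was 1.51 ± 0.12 (SE, limma adjusted p = 1.21e-06), with no overlap between the 6 and 6 arrays. Nrp1, neuropilin-1, a coreceptor that modifies the semaphorin 3E signal, went from 174, 450 and 667 to 4560, 5236 and 5946. Its difference was 3.68 ± 0.25 (limma adjusted p = 3.83e-07), and its 3 other probe sets gave 2.20 to 3.97. Among those 3, a probe set missed the limits of the set through a single array, IL3 replicate 1 at 190.2. Its IL3+SCF signals were 818.5 or above, so Nrp1 lay close to the set itself. The other 6 class 3 semaphorin genes and Nrp2 were too dim to test, with no median above 88.9 in either group.

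For Tgfa, the receptor gene Egfr was too dim to test, at medians of 62.6 and 39.3. Adam17, the protease that sheds TGF alpha from the membrane, rose by 0.30 ± 0.05 on the log2 scale (limma adjusted p = 0.000727). The related ligand gene Egf fell by 0.42 ± 0.08 (limma adjusted p = 0.0016), and Hbegf had -0.08. For Epha3, the relative Epha5 rose from a median of 563 to 1744, by 1.64 ± 0.08 (limma adjusted p = 4.18e-08). The ligand genes Efna1, Efna3 and Efna4 were too dim to test, and Efna2 and Efna5 had log2 differences of 0.17 and 0.13 that did not pass.

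Tlr2, the partner of TLR1, fell by 1.04 ± 0.31 on the log2 scale (limma adjusted p = 0.0197). Its signals were 110, 151 and 442 in IL3 and 43.2, 76.9 and 131 in IL3+SCF, so the groups overlapped and 3 IL3+SCF arrays were dim. Tlr6, the other partner of TLR2, had a difference of 0.15 that did not pass. Hmox1, the haem oxygenase that acts on haem taken up through CD163, had -0.09. The relatives Clec2d and Prrg4 had 0.04, not past the test, and a rise of 0.58 (limma adjusted p = 0.00248).

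Among the relatives of Gnaq, Gna15 fell by 0.53 ± 0.11 (limma adjusted p = 0.00209), Gna14 rose by 0.18 (limma adjusted p = 0.0155), and Gna11, the closest in sequence, had -0.08 and did not pass. The Gna14 call was lost under median centring (0.15) and without IL3 replicates 3 and 6 (0.14). Plcb4, a phospholipase C beta that G alpha q activates, rose by 0.80 ± 0.16 (limma adjusted p = 0.00198), though its 4 other probe sets ran from -0.48 to 0.98. Plcb2 and Plcb3 rose by 0.35 and 0.20 (limma adjusted p = 0.0177 and 0.0112), and both lost the call with the replicate block. The Plcb2 call was also lost without IL3 replicates 3 and 6 (0.36) or 4 and 5 (0.29), and the Plcb3 call with each array centred on its median (0.18). Plekha2, the relative of Plekha1, rose by 0.49 ± 0.08. Of the calcium/calmodulin kinases near Pnck, Camk1 rose by 0.39 ± 0.06 and Camk1d fell by 0.36 ± 0.07. Rhoa, with 14582 to 18036 over all arrays, had 0.10 and did not pass, and Cdk16 had -0.10.

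Caveola genes moved in part with Cavin2. Cav2 rose from a median of 1315 to 2730, by 1.07 ± 0.12 (limma adjusted p = 3.05e-05), with 0.35 on its other probe set. Cavin1 rose by 0.64 ± 0.17 (limma adjusted p = 0.012), with overlapping groups and differences of -0.07 and -0.06 on its 2 other probe sets. Cav1, the main structural protein of caveolae, was too dim to test, at medians of 27.6 and 39.5, and so was Cavin3. Among cadherins that bind plakoglobin, Cdh1, E-cadherin, read 109, 249 and 1019 in IL3 and 2.58, 27.4 and 38.6 in IL3+SCF. It was dim on all 6 IL3+SCF arrays and entered the test through the IL3 arrays alone, so no fold or p is given. The desmoglein gene Dsg2 had 0.11 and did not pass. Cdh2, N-cadherin, fell by 0.91 ± 0.11 (limma adjusted p = 4.02e-05). Ctnnb1, beta-catenin, the close relative of plakoglobin, had -0.02, and the desmosome gene Dsp was too dim to test.

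For the nuclear anchor Syne2, Syne1 and Sun1 had -0.15 and -0.06, and for Sorbs2 and Sorbs3, Vcl, vinculin, had -0.07. None of these passed. In the Hippo pathway around Wwtr1, Yap1 read 175, 295 and 355 in IL3 and 202, 223 and 421 in IL3+SCF, a log2 difference of -0.06 that did not pass. The kinases Lats1 and Lats2 had 0.11 and 0.13, and the target gene Ccn1 had -0.09. Sav1, a scaffold protein of the pathway, had 0.15 (limma adjusted p = 0.0436), a call that held in 8 of the 21 other fits. Of the TEAD genes, Tead1 and Tead2 had 0.39 and -0.32 and did not pass, and Tead3 and Tead4 were too dim to test. The target gene Ccn2 was also too dim, at 5.99 or less on every array. Cpeb2 and Cpeb3, relatives of Cpeb1, had 0.09 and 0.02.

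In metabolism, Ephx2, the soluble epoxide hydrolase, read 100, 118 and 166 in IL3 and 2.86, 9.13 and 18.5 in IL3+SCF. Like Cdh1 it was dim on all 6 IL3+SCF arrays and passed the brightness filter through the IL3 arrays alone, so its signals are a description. Ephx1 had 0.37 and did not pass. B4galt5, the other lactosylceramide synthase, rose from a median of 2749 to 8294, by 1.59 ± 0.19 (limma adjusted p = 3.93e-05), with 0.10 on its other probe set. St3gal5, which adds sialic acid to lactosylceramide, fell by 0.93 ± 0.12 (limma adjusted p = 8.37e-05), and its other probe set gave -1.12. Ugcg, which makes the glucosylceramide that precedes both steps, had 0.00.

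Of the relatives of Galnt6, Galnt4 rose by 0.35 ± 0.05 and Galnt1 and Galnt12 fell by 0.28 ± 0.05 and 0.94 ± 0.25 (limma adjusted p = 0.000193, 0.000481 and 0.0119). The groups overlapped for Galnt12. Slc46a3, related to Slc46a1, rose by 1.04 ± 0.17 (limma adjusted p = 0.000396). Its signals were 92.6, 108 and 187 in IL3 and 206, 251 and 356 in IL3+SCF, so it missed the limits of the set through a single IL3 array at 187. The reduced folate carrier gene Slc19a1 had 0.07 and did not pass.

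Neighbours on the chromosome were read from the RefSeq order of protein-coding genes. Brdt and Ephx4 lie next to each other on chromosome 5 and were the only adjacent pair among the 28. Of 54 neighbours outside the set, 46 are on the array and 23 could be tested. Of these, 11 rose (47.8%) and 2 fell (8.7%), where 18.9% and 16.6% of all genes tested did. Tmeff2, a transmembrane protein gene beside Cavin2, rose by 1.97 ± 0.11 (limma adjusted p = 8.49e-08). Both neighbours of Sorbs3 rose, Pdlim2 by 0.77 ± 0.07 and Ppp3cc, a calcineurin catalytic subunit, by 0.48 ± 0.08. Slc6a8, the creatine transporter gene beside Pnck, rose by 0.86 ± 0.12, and Slc13a2, beside Slc46a1, by 0.96 ± 0.13. Tlr6 beside Tlr1 did not pass. These neighbours were described after the set was known, and no test of the share was made.

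Start regions were found for 25 of the 28 genes, not for B4galt6, Pnck and Sorbs3. Their median GC content was 60.7%, against 58.7% over 14453 genes on the array and 54.0% over 5487 genes whose every probe set was below 150 on all IL3 arrays. The ratio of CpG observed to expected was 0.6 or above in 14 of the 25 genes (56.0%), in 57.0% of genes on the array and in 29.1% of the genes below 150. The 28 genes needed only 1 probe set below 150 on all IL3 arrays, and 9 of them have another at 150 or above on an IL3 array. The genes below 150 are thus defined more narrowly than the 28. These shares are a description, and no test was made. Ephx4 had the highest ratio, 1.02, and Iffo2 the lowest, 0.147.

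**Figure D5:**
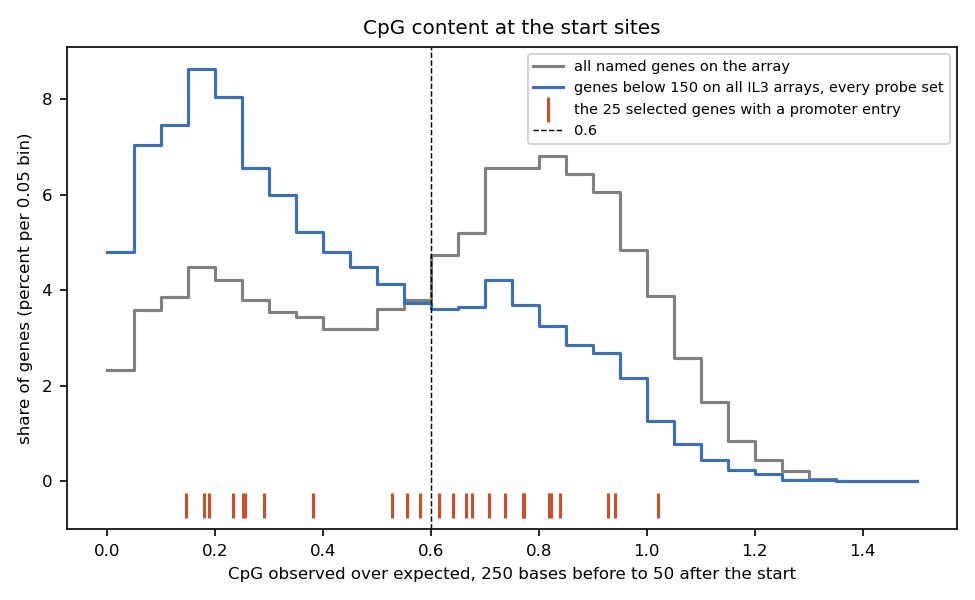
The x axis is the ratio of CpG observed to expected in the 300-base start region and the y axis the share of genes in each bin. Grey is for all named genes on the array and blue for genes with every probe set below 150 on all IL3 arrays. Red ticks are the 25 selected genes. The ticks run from 0.147 to 1.02, with 14 of them right of the dashed line at 0.6.

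Motifs were counted in the same windows, without a test. A GATA motif was found in 6 of the 25 windows (24.0%, against 22.3% of genes on the array) and an MITF E-box in 4 (16% against 18.3%). The STAT5 motif TTCNNNGAA was found in 3 (12% against 7.29%), those of Sema3e, Gnaq and Epha3. The TEAD motif GGAATG was found in 2 (8.0% against 13%), the NFAT motif GGAAAA in 4 (16% against 21.5%) and the RUNX motif TGTGGT in 3 (12% against 13.7%). The AP-1 motif TGANTCA and TATAAA were each found in 1 (4.0%, against 6.33% and 9.87%). All were searched on both strands, no motif was required to be free of overlap with another, and these letters absent from a window say nothing of a factor elsewhere.

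Pathway lists around the set, which hold none of the 28 genes, showed calls in both directions. Their counts stand against 18.9% risen and 16.6% fallen over all genes tested. Of 34 KIT signalling genes tested, 6 rose and 5 fell, Stat3 with -0.55, and under median centring of the arrays, or without IL3 replicates 3 and 6, 3 rose. Of 28 TGF-beta, BMP and activin genes 7 rose, 4 with each array centred on its median, and 6 fell, led by Id3 with -1.77. The activin inhibitor gene Fst, counted among the rises, was dim on all 6 IL3 arrays at 33.7, 61.9 and 75.7 and read 173, 258 and 325 with SCF. Of 20 WNT genes 6 rose, Fzd8 with 0.86, and 4 fell, Fzd1 with -0.77. Of 16 Notch genes 4 rose, Notch1 with 0.59, and 4 fell, Notch3 with -2.18. Only 13 of 46 listed matrix genes were bright enough to test, of which 5 rose (3 without IL3 replicates 3 and 6), Adamts5 with 1.75, and 4 fell, Timp3 with -1.92. Of 25 ion channel genes 6 rose, Kcnq1 with 1.37, and 3 fell, Trpc6 with -0.92. Fzd8 was dim on 2 IL3 arrays and Kcnq1 on 3, while Fzd1 was dim on 5 IL3+SCF arrays and Notch3 on 4. The sizes of their differences are therefore not reliable. The lists of connective tissue and mucosal mast cell genes had 5 rises and 5 falls of 33 and 3 rises and 1 fall of 11. Of those 5 rises, Tpsab1 and Mrgprb1 met the limits of the set on these same arrays, and as the mean of probe sets there were 9 rises. The medians of these lists ran from -0.02 to 0.38 on the log2 scale, against 0.02 over all genes.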

How the data were processed

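Per the labels' protocols, 50 ng of RNA per sample was amplified and hybridised to Affymetrix arrays. Linear signal intensities, 1 per probe set, were deposited by the authors. GCOS 1.4 is listed as their tool, per the submitters' processing notes, and how it corrected background is not given in the sources used here. Without its top and bottom 2%, every array averaged 1250.01, which is a common scaling, and no further normalization was applied. Of 45101 probe sets, 34958 carry 1 gene symbol in the annotation used.

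The 28 genes and all lists were chosen with earlier results of these data known. All 28 are named, and of each list at most the 2 largest rises and 2 largest falls that passed, with partners and neighbours chosen after their values were seen. Values of the 25 genes with the widest gaps are given in full, and those of Galnt6 as well. For genes outside the set, limma 3.58.1 in R 4.3.3 compared log2(signal + 16), which understates changes of dim genes, over probe sets above the array's 40th percentile on at least 6 arrays, the brightest per gene. The limma fit was tested on simulated data. Promoter windows and gene order come from RefSeq tables of GRCm38.p6; protein sequences were not used here. Python 3.11.15, pandas 2.3.3, numpy 2.4.6 and matplotlib 3.10.9 were used. Alternatives were other limits, quantile normalization, a common median, other pseudocounts, no filter, the mean of probe sets, the replicate number as a block and each array left out. The fits without IL3 replicates 3 and 6 or 4 and 5 were added after seeing the data.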

Additional observations from a re-analysis of the deposited data

Results flagged for a closer look

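In 3 of 56 groups of 6 arrays, the array at one end stood far from its nearest neighbour, as chance does in about 1 group in 20. For Iffo2, IL3 replicate 1 read 134 and the next array 94.6, a gap of 0.669 of the group's range. Also for Iffo2, IL3+SCF replicate 6 read 242 and the next 218, a gap of 0.657 of the range. For Galnt6, IL3+SCF replicate 1 read 305 and the next 243, a gap of 0.635 of the range. In each case the array stood at the top of its group, and the lowest IL3+SCF signals of both genes lay near the limit of 200.

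The limits were also met by 2 probe sets without a gene symbol in the annotation used, which the gene set leaves out. The brighter one read 16.8, 56.3 and 91.5 in IL3 and 317, 453 and 541 in IL3+SCF (lowest, median and highest of 6 arrays). The dimmer one read 73.3, 106 and 132 in IL3 and 208, 263 and 300 in IL3+SCF.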

How the results depend on the processing

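The size of the set followed from its limits. Of the 28 genes, 8 stayed with all IL3 signals below 100, 7 with all at or below the array's 40th percentile, and 9 with all IL3+SCF signals at 300 or above. When every probe set of a gene had to meet the limits, the 8 genes with a single probe set remained by definition, and 0 of the 20 with further probe sets. Quantile normalization gave 29 genes, 24 of them shared, and a common median gave 26, 22 shared, without Brdt, Cdk18, Galnt6, Iffo2, Slc46a1 and Sorbs3. Leaving out 1 array, which can only loosen the limits, gave 28 to 36 genes. Across all genes, 1369 rose and 1415 fell with each array centred on its median, against 2155 and 1900. Correlations between the deviations of samples with the same replicate number were mixed, from -0.198 to 0.251. Only replicate 6 had its best match in its own number. The fit with the replicate block gave 1747 risen and 1584 fallen genes. Of the genes named outside the set, Notch1 lost its call as the mean of its probe sets (0.35). Gna14, Plcb2, Plcb3 and Sav1 lost theirs in some fits, as given beside them, and no other call was lost or reversed in the fits tried. Tead2, which did not pass, was called in 1 of the 21 other fits. Of the lists, the KIT genes had 3 falls with the replicate block, against 5. Signals near the dim end of the arrays limit every ratio given.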
